A study of Mus musculus with 6 samples.

Results

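The collagen hydroxylases, lysyl oxidases and the collagen chaperone considered here were 9 genes, P4ha1, P4ha2, P4hb, Plod1, Plod2, Plod3, Lox, Loxl2 and Serpinh1, chosen by name from the 50686 genes listed in the count files. The choice was made with earlier results of these data known. All 9 were matched to an identifier and all passed the filter on low counts. Their mRNA levels were measured by RNA sequencing in embryoid bodies grown from mouse iPSCs (induced pluripotent stem cells), which had been reprogrammed from gingival fibroblasts. Values after ± are SDs over the n = 3 samples of a group, and SE stands for standard error. All constructs of both groups had been exposed to retinoic acid, attached to gelatin and kept in serum-free medium. In 3 samples intermittent compressive force (ICF) of 1.5 g per square centimetre was applied at 0.23 Hz for 24 h, and 3 unloaded samples were the control. The labels number the samples as donors 1 to 3 in each group, and this number is called the replicate. The methods speak of independent experiments and name no donors, so p-values measure the spread between these samples. The iPSCs had been grown on SNL feeder fibroblasts that were removed by selective trypsinization.

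Collagen chains are modified in the endoplasmic reticulum before they are secreted. Prolyl 4-hydroxylase, a tetramer of catalytic α subunits (P4ha1, P4ha2) and β subunits (P4hb, which is protein disulfide isomerase), hydroxylates prolines so that the triple helix is stable at body temperature. The lysyl hydroxylases Plod1, Plod2 and Plod3 hydroxylate lysines, Serpinh1 (Hsp47) holds the folded procollagen, and outside the cell Lox and Loxl2 oxidise lysines so that fibres crosslink. The hydroxylases need oxygen, iron, 2-oxoglutarate and ascorbate, and several genes of this group, among them P4ha1, P4ha2, Plod2, Lox and Loxl2, are known targets of the hypoxia-inducible factor HIF-1.

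The reads assigned to genes numbered 28711166 to 34194413 in a sample. Among genes with any reads in ICF replicate 3, 89.0% had a count divisible by 4, where the other 5 samples had 20.3% to 21.5%, and in this sample the counts of 8 of the 9 genes here were divisible by 4. ICF replicate 3 had 20802 genes with any reads, and the other samples had 24340 to 24889. The sample was used as deposited. Markers of pluripotent cells were high in all samples, with Pou5f1 at 841 ± 57.2 CPM in the control and 817 ± 70.4 with ICF. CPM, the level used here, is a count scaled to the size of its library (TMM factors). The summed level of 10 fibroblast or mesenchymal markers was 201 to 217.5 CPM in the control and 214 to 219.9 CPM with ICF. Most of this sum was Pdgfra. Lum was close to 0, and Fap had 0, 1 and 2 reads in the control samples and 0 in all ICF samples. Of the 8 markers that could be tested, 0 passed. With the replicate block 1 passed, Twist1, at 9.35 CPM in the control and 12.2 with ICF. The summed level of 10 pluripotency markers was 3993 to 4749 CPM in the control and 3706 to 4077 CPM with ICF, and 1 of them, Tdgf1, was called lower, with Dppa5a and Utf1 added by the block. Of 7 endoderm markers 1, Sox17, was called lower, and with the block 1 was lower and 2 higher. Of 6 neuroectoderm and 4 endothelium markers tested 0 passed, and with the block 1 in each list was lower and 1 higher. A lower level in such bulk RNA can stem from fewer cells of a type or from less RNA per cell, and these cannot be told apart.

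In ICF-treated iPSCs, 4 of the 9 genes were downregulated and 0 upregulated, whereas 5 did not pass the threshold. Loxl2 and P4ha1 fell furthest, to 52.3% and 54.0% of the control mean, followed by Plod2 (68.9%) and P4ha2 (75.5%). P4hb was at 90.8%, and Serpinh1, Plod1 and Plod3 were at 102.1%, 101.6% and 104% of the control. The threshold was an adjusted p of 0.05 in the quasi-likelihood test of edgeR, run over all 16729 genes that could be tested. Of all these, 7.85% were called, 4.38% lower and 3.47% higher, and their median log2 fold change was 0.003, against -0.14 for the 9 genes. Since the 9 genes were chosen with earlier results known, this comparison is not independent of these data. When the replicate number was added as a block, 5 of the 9 were lower, P4hb being added, while 29.9% of all genes were called, 15.3% lower. P4ha1, Plod2 and Loxl2, 3 genes, passed in all 14 alternative settings.

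**Figure D1:**
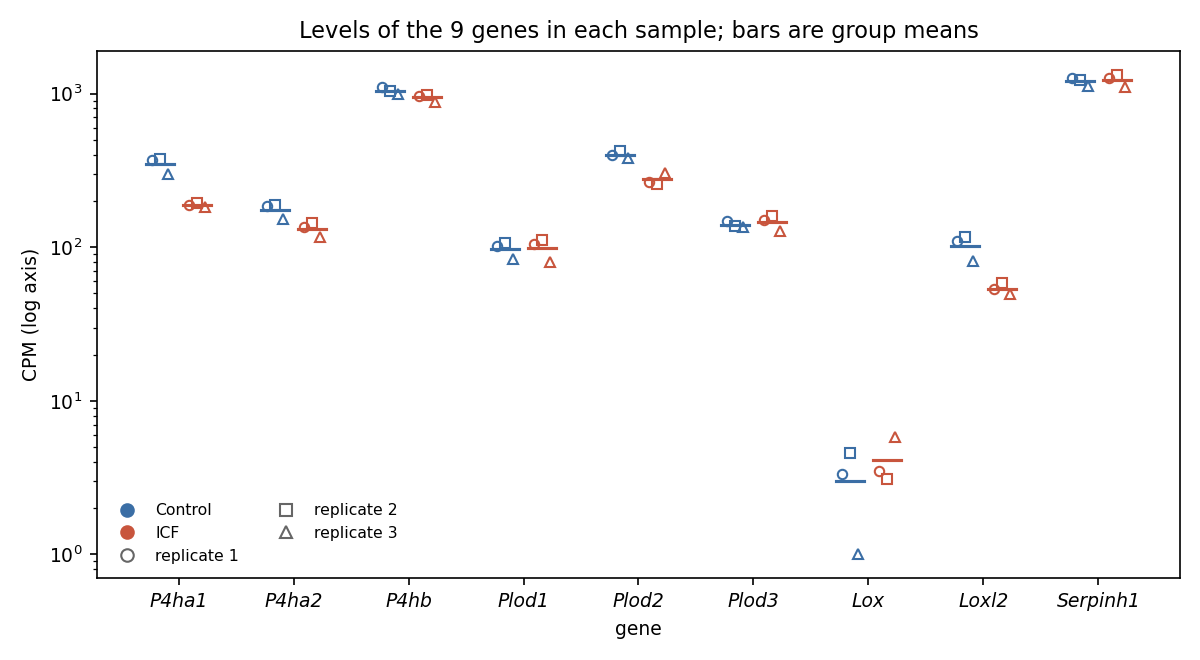
CPM of each of the 9 genes (x axis) on a log axis in the 3 control and 3 ICF samples, with symbols for replicates and bars for group means. The groups stand apart for P4ha1, P4ha2, P4hb, Plod2 and Loxl2, and overlap for Plod1, Plod3, Lox and Serpinh1.

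Among the catalytic α subunits of prolyl 4-hydroxylase, P4ha1 (ENSMUSG00000019916) is located on GRCm38 chromosome 10 (59323296 to 59373304). Control replicates 1 to 3 were at 369, 376 and 299.6 CPM, and the ICF samples at 188, 194 and 183 CPM. Every ICF sample was below every control sample, and the lowest control was replicate 3. On the log2 scale the fold change was -0.89 (SE 0.11; edgeR adjusted p = 0.001). Within replicates 1, 2 and 3 the log2 differences were -0.98, -0.96 and -0.71. The SD between samples was 42.4 CPM in the control and 5.16 with ICF.

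P4ha2 (ENSMUSG00000018906, chromosome 11, 54100095 to 54131665) encodes a second catalytic subunit. It was at 185, 187 and 152 CPM in the control and at 136, 143 and 116 CPM with ICF. The groups did not overlap, but the gap between the lowest control and the highest ICF sample was small. Its log2 fold change was -0.40 (SE 0.13), and the adjusted p of 0.048 (edgeR) was close to the threshold. Within the 3 replicates the differences were -0.44, -0.39 and -0.39 on the log2 scale. Adding the replicate block gave an adjusted p of 8.3e-08 (edgeR). Without control replicate 3 it was 0.016, and without each of the other 5 samples in turn (control replicates 1 and 2 and ICF replicates 1, 2 and 3) it was 0.18, 0.2, 0.12, 0.069 and 0.071, above the threshold, with log2 fold changes of -0.46 to -0.31.

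The β subunit P4hb (ENSMUSG00000025130, chromosome 11, 120560298 to 120573253) also catalyses disulfide bonds in many other secreted proteins. Its level was 1096, 1036 and 986 CPM in the control and 967, 984 and 881 CPM with ICF. All ICF samples were lower, but ICF replicate 2 lay just under control replicate 3. The log2 fold change was -0.14 (SE 0.07, edgeR adjusted p = 0.24), and with the replicate block it was -0.14 with an adjusted p of 0.023. Over all genes tested, 15.7% had every ICF sample below every control sample.

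The promoters of P4ha1 and P4ha2, which fell together, are shown beside those of P4hb, Plod3 and Serpinh1, which did not pass the test, as RefSeq gives them for GRCm38.p6. The window of Plod1, which did not pass the test either, held 0 ACGTG and 1 GCGTG matches and is not shown. Each run holds the 250 bases before the start site in RefSeq, 5′ to 3′ on the gene's strand. For P4ha2 this start lies downstream of the gene start in GENCODE, so its window is inside the gene as placed above. Capitals mark ACGTG or GCGTG on either strand, the core letters of the element that HIF-1 is known to bind. The windows are chr10:59323046-59323295 (+) for P4ha1, chr11:54100674-54100923 (+) for P4ha2, chr11:120573254-120573503 (-) for P4hb, chr5:136986769-136987018 (+) for Plod3 and chr7:99353240-99353489 (-) for Serpinh1.
P4ha1: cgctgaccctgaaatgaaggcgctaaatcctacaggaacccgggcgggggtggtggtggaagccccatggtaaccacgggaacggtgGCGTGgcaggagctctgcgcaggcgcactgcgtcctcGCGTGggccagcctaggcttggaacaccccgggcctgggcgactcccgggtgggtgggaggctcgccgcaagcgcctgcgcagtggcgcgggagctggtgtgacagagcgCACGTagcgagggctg
P4ha2: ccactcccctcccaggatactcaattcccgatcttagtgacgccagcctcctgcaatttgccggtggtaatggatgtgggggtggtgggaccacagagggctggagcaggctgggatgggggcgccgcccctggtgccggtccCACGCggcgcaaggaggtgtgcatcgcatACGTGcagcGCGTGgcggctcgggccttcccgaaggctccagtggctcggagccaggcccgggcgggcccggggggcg
P4hb: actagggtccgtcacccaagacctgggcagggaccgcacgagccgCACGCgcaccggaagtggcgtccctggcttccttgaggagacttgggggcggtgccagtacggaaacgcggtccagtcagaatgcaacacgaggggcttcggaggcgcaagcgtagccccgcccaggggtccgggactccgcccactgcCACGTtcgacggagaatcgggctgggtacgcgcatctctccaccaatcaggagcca
Plod3: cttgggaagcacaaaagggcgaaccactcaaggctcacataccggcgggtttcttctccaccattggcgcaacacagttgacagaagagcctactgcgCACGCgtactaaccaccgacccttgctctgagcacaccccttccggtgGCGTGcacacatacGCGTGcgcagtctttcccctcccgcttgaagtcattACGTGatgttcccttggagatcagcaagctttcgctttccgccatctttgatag
Serpinh1: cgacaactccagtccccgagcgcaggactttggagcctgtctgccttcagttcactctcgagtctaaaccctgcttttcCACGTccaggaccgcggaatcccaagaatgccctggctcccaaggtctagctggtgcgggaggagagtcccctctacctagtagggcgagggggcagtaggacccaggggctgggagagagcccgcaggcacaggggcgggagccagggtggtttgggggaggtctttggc

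Of the 9 genes, 6 matched a RefSeq promoter entry, and Plod2, Lox and Loxl2 did not. ACGTG was found in 5 of the 6 promoters, those of P4ha1, P4ha2, P4hb, Plod3 and Serpinh1, and not in that of Plod1. GCGTG was found in 5 of the 6, all except Serpinh1. Of all 32851 promoter windows in the table, 16.6% held ACGTG and 28.2% held GCGTG on either strand. These 6 windows were rich in G and C, from 55.6% to 70.0%, and in the 10217 windows within this range the shares were 21.9% and 45.5%. P4ha1 and P4ha2 each had 1 ACGTG and 2 GCGTG matches. In P4ha1 the ACGTG match began 16 bases before the start site, and in P4ha2 78 bases before it. P4hb held 1 match of each kind, and Plod3, with 1 ACGTG and 3 GCGTG matches, held more than P4ha1 or P4ha2. The letters were present both in genes that fell and in genes that did not pass the test.

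Plod2 (ENSMUSG00000032374, chromosome 9, 92542223 to 92608428) encodes the lysyl hydroxylase that acts on the telopeptides of fibrillar collagen, where the hydroxylated lysines give stable crosslinks. It was at 399, 424 and 379 CPM in the control and fell to 265, 259 and 304 CPM with ICF. The groups did not overlap, and ICF replicate 3 was the closest to the control. Plod2 had a log2 fold change of -0.54 (SE 0.09, edgeR adjusted p = 0.0054). Within replicates the log2 difference was -0.59, -0.71 and -0.32. In the longest transcript, 6.44% of all 75-base stretches are antisense to Gm38391, and the libraries were strand-specific.

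The other lysyl hydroxylases did not pass the test. Plod1 (ENSMUSG00000019055, chromosome 4, 147909753 to 147936767), which hydroxylates lysines of the helix, was at 102, 106 and 84.4 CPM in the control and 106, 112 and 80.2 CPM with ICF. Plod3 (ENSMUSG00000004846, chromosome 5, 136987019 to 136996648), which also glycosylates hydroxylysine, was at 148, 136 and 135 CPM in the control and 149.7, 160.2 and 127 CPM with ICF. In both genes the groups overlapped, and replicate 3 was the lowest sample of each group. Their log2 fold changes were 0.02 (SE 0.18) and 0.06 (SE 0.11), with adjusted p-values of 0.93 and 0.7 (edgeR). The direction of Plod1 turned without control replicate 3 (-0.07), ICF replicate 1 (-0.02) or ICF replicate 2 (-0.06), and that of Plod3 without ICF replicate 2 (-0.01). In the longest transcript of Plod3, 11.88% of the 75-base stretches are antisense to Znhit1.

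Of the lysyl oxidases, Loxl2 (ENSMUSG00000034205, chromosome 14, 69609068 to 69695834), which also crosslinks the collagen IV of basement membranes, was the gene of the group with the lowest percent of control. In the control it was at 109.6, 117 and 80.8 CPM, and with ICF at 53.3, 58.2 and 49.4 CPM. No ICF sample reached the lowest control, which was replicate 3. For Loxl2 the log2 fold change was -0.93 (SE 0.18, edgeR adjusted p = 0.0048), and within replicates the differences were -1.04, -1.01 and -0.71. Of the 75-base stretches in its longest transcript, 44.3% also occur in transcripts of the copy Gm21451, and reads with several alignments were not counted, so its level may be understated. Gm21451 itself had 0 to 9 counts per sample.

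Lox (ENSMUSG00000024529, chromosome 18, 52516067 to 52529867), the founding member of the lysyl oxidases, was barely expressed. It was at 3.35, 4.60 and 1.01 CPM in the control, which were 98, 144 and 29 reads. With ICF it was at 3.48, 3.09 and 5.80 CPM, or 121, 102 and 168 reads. The groups overlapped, with replicate 3 the lowest sample of the control and the highest with ICF. The log2 fold change was 0.45 with a SE of 0.70 (edgeR adjusted p = 0.58), so a change was not detectable. Without control replicate 3 the value was 0.04, and without replicate 3 of both groups it was -0.28 (edgeR adjusted p = 0.21). The 168 reads of ICF replicate 3 are 4 times 42.

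Serpinh1 (ENSMUSG00000070436, chromosome 7, 99345376 to 99353239), the chaperone that binds the procollagen helix, was the most abundant mRNA of the group. Its level was 1262, 1229 and 1127 CPM in the control and 1266, 1326 and 1102 CPM with ICF. The groups overlapped, with a log2 fold change of 0.03 (SE 0.09, edgeR adjusted p = 0.85). Its sign turned without control replicate 3 (-0.02) and without ICF replicate 2 (-0.02). In single-gene exact two-sided permutation tests, P4ha1, P4ha2, P4hb, Plod2 and Loxl2 gave p = 0.1, and the other genes gave p of 0.5 to 1.0. The value 0.1 is the lowest that this permutation test can give with 3 against 3 samples. In these 5 genes every ICF sample was below every control sample, as in 15.7% of all genes tested.

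**Figure D2:**
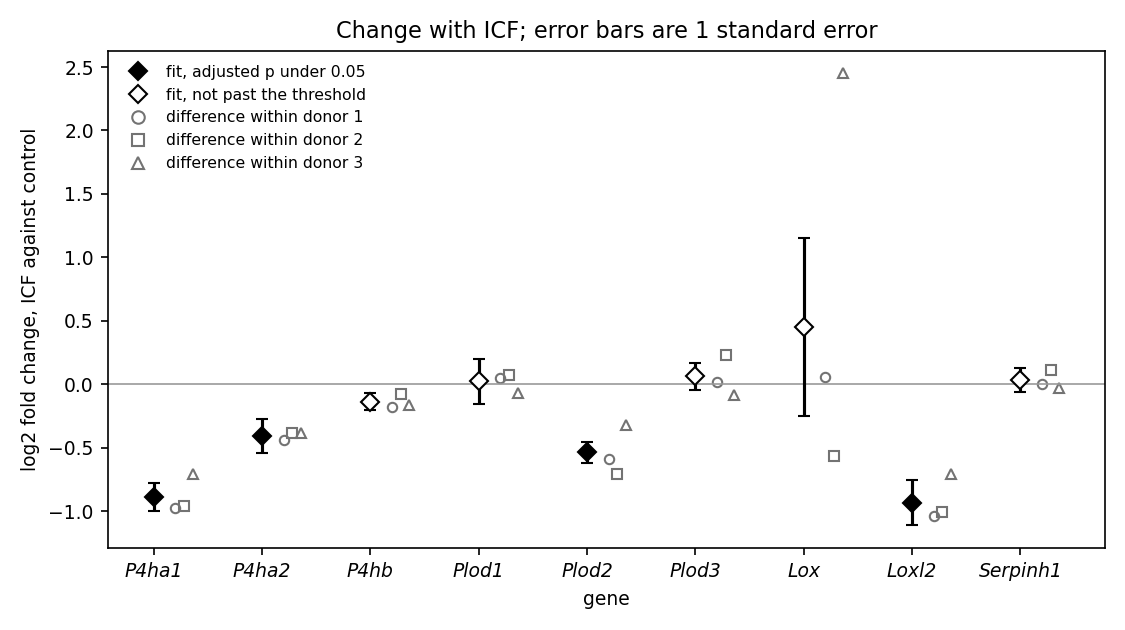
Log2 fold change of each gene with ICF (y axis, diamonds, bars of 1 SE from the spread of log2 CPM). Beside it are the 3 differences between samples of the same donor number. P4ha1 and Loxl2 lie near -0.9, and for Lox these differences run from -0.57 to 2.45.

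Within a sample, levels of different genes were compared as CPM per kilobase of all annotated exons of a gene. This length can exceed that of an mRNA, as in P4ha2, with 6239 bases against 3060 in its longest transcript. In the control the order was Serpinh1 (494 CPM per kilobase), P4hb (363), P4ha1 (84.7), Plod2 (74.3), Plod3 (30.9), P4ha2 (28), Loxl2 (19.0), Plod1 (14.4) and Lox (0.63). The ranges of the samples overlapped between P4ha1 and Plod2, between Plod3 and P4ha2 and between Loxl2 and Plod1, and stood apart between the other neighbours. With ICF, Plod2 (51.2 CPM per kilobase) was above P4ha1 (45.7), and Plod1 (14.7) was above Loxl2 (9.92), and no neighbours overlapped. Per kilobase of the longest transcript, a choice made after the data were seen, the control order was Serpinh1 (530.4), P4hb (363), Plod2 (109.4), P4ha1 (86.2), P4ha2 (57.1), Plod3 (42.6), Plod1 (23.8), Loxl2 (19.3) and Lox (0.63). P4ha2 stood above Plod3, and Plod2 above P4ha1, with ranges apart, while Plod1 and Loxl2 still overlapped. With ICF the ranges of P4ha1 (46.5) and Plod3 (44.4) overlapped, as did those of Plod3 and P4ha2 (43.1), and other neighbours stood apart. The value for Loxl2 may be understated, since it shares stretches with its copy.

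The balance of subunits and isoforms was also compared, per kilobase. The α subunits P4ha1, P4ha2 and P4ha3 summed to 31.0% ± 2.67 of the P4hb level per kilobase in the control and to 20.4% ± 0.30 with ICF. The samples were at 31.2%, 33.6% and 28.3% in the control and at 20.1%, 20.5% and 20.7% with ICF, so the groups did not overlap. P4ha1 made up 74.99% ± 0.20 of the α subunit level in the control and 68.0% ± 1.73 with ICF. The summed level of the 3 lysyl hydroxylases was 119.6 ± 6.22 CPM per kilobase in the control and 98.1 ± 1.83 with ICF. The share of Plod2 in it was 62.1% ± 1.21 in the control and 52.3% ± 5.49 with ICF. ICF replicates 1 and 2 were at 50.2% and 48.1%, and ICF replicate 3, at 58.5%, was nearer to the lowest control at 60.8%. Of the summed level of 5 lysyl oxidase genes, Loxl2 held 86.4% ± 1.13 in the control and 73.2% ± 2.10 with ICF. By the longest transcript, P4ha1 made up 60.0% of the α subunits in the control and 51.7% with ICF, and the α subunits were at 39.4% and 27.3% of P4hb. The shares of Plod2 and Loxl2 moved by less than 1 percentage point, and every ICF sample remained below every control sample in each of these quantities. These shares follow from the levels above and were given no test.

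**Figure D3:**
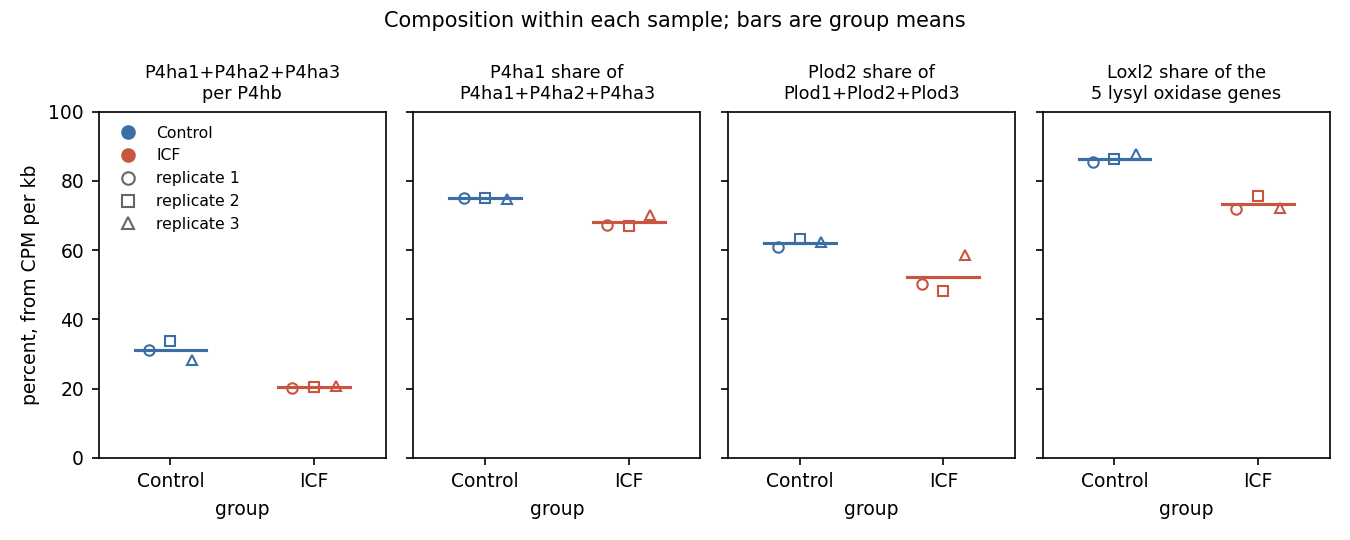
Percent in each sample (y axis, from CPM per kilobase) for the α subunits relative to P4hb and for the shares of P4ha1, Plod2 and Loxl2 in their families, with bars for group means. In all 4 panels every ICF sample is below every control sample, with ICF replicate 3 closest to the control for Plod2.

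Further genes were taken from 9 lists with 95 genes, of which 90 could be tested. The lists too were chosen with earlier results of these data known. 1 list, the other 2-oxoglutarate oxygenases with 19 genes tested, lies outside the collagen pathway. Of the 90, 10 were downregulated and 5 upregulated, where 4.38% and 3.47% of all genes were. The 2-oxoglutarate oxygenases held 7 of the 10 and 0 of the 5. The log2 fold changes of the 90 had a median of -0.06. With the replicate block 28 of the 90 were lower and 17 higher, 11 and 1 of them oxygenases, where 15.3% and 14.6% of all genes were. Without each sample in turn, 4 to 11 were lower and 1 to 7 higher, and the sets without control replicate 1, control replicate 2, ICF replicate 1 or ICF replicate 2 held 4 lower genes each.

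The collagen chains are the substrates of these enzymes. Of 16 chains tested, 4 were upregulated and 0 downregulated, where 3.47% and 4.38% of all genes were. The 4 were all fibrillar, and the other 4 of the 8 fibrillar chains tested did not pass. The median log2 fold change of the 16 was 0.20. With the replicate block 6 were higher and 4 lower. The fibrillar chain Col11a1, chosen after its values were seen, went from 27.8 to 21.8 CPM, with every ICF sample below every control sample (log2 fold change -0.35; adjusted p = 0.051 in edgeR, 0.00073 with the block and 0.017 in DESeq2). Col5a2, a minor chain of fibrils, rose from 4.12 ± 0.15 to 7.05 ± 0.24 CPM (log2 fold change 0.78; edgeR adjusted p = 0.0072). Col1a1, the main chain of type I collagen, rose from 15.3 ± 3.31 to 25.6 ± 2.10 CPM, Col3a1 from 9.64 ± 2.16 to 16.01 ± 3.02 CPM and Col5a1 from 13.4 ± 1.37 to 19.1 ± 0.93 CPM. In these 4 chains every ICF sample was above every control sample, as in 15.6% of all genes tested. Col5a2 passed without each sample in turn. Col3a1 passed in none of the 6 tests that left out a sample (adjusted p of 0.067 to 0.15, edgeR). Col1a1 was lost without control replicate 1, ICF replicate 1 or ICF replicate 2 (0.053 to 0.084) and Col5a1 without control replicate 1, control replicate 2 or ICF replicate 1 (0.061 to 0.091). Col1a2, the other chain of type I collagen, chosen after its values were seen, was at 15.1 ± 7.32 CPM in the control and 22.9 ± 10.5 with ICF. Its groups overlapped (log2 fold change 0.605; adjusted p = 0.42 in edgeR and 1e-06 with the block). The summed fibroblast markers given above ranged from 201 to 217.5 CPM without and from 214 to 219.9 CPM with ICF. Within this list Twist1 was at 131% and S100a4 at 132% of the control (edgeR adjusted p = 0.18 and 0.31). The others tested were Postn (142.5%), Prrx1 (109.4%), Thy1 (104.5%), Pdgfrb (104.0%), Pdgfra (102.3%) and Dcn (92.2%). The part of these markers in the collagen result was not tested.

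Col4a1 and Col4a2, basement membrane chains and the most abundant of the list, were chosen here after their values were seen. Col4a1 was at 2219 ± 174 CPM in the control and 1821 ± 205 with ICF (log2 fold change -0.29; edgeR adjusted p = 0.096). Col4a2 was at 1289.7 ± 114 and 1001 ± 132 CPM (log2 fold change -0.37; edgeR adjusted p = 0.067). Every ICF sample was below every control sample in both. With the replicate block their adjusted p-values were 9e-06 and 1.7e-07 (edgeR). In DESeq2 without the block they were 0.045 and 0.014. Of the 4 basement membrane chains tested in edgeR, 0 passed without the block and 2 had an unadjusted p under 0.05. With the block 3 were lower, where 15.3% of all genes were.

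In the endoplasmic reticulum, 1 of 11 genes for disulfide formation and the PDI family was downregulated (Ero1a) and 0 upregulated. With the replicate block 4 were lower (Ero1a, Pdia5, Txndc5 and Prdx4) and 1 higher (Pdia3). Ero1a, the oxidase that recharges protein disulfide isomerase, fell from 116 ± 6.84 to 60.9 ± 9.13 CPM (log2 fold change -0.94, SE 0.13, edgeR adjusted p = 0.0017). Pdia3, a relative of P4hb, was at 987 ± 35.2 in the control and 1143 ± 26.7 CPM with ICF. Its log2 fold change of 0.21 did not pass (edgeR adjusted p = 0.055), although with the replicate block it did (0.00081). Among 13 genes for procollagen folding and exit from the endoplasmic reticulum, Tmem38b, an ion channel needed for normal collagen modification, was downregulated, with a log2 fold change of -0.39 (edgeR adjusted p = 0.031). It did not pass without control replicate 1 or 2 or ICF replicate 1 or 2 (0.051 to 0.13). Sec31a, a coat protein of the export vesicles, had a log2 fold change of -0.07 (edgeR adjusted p = 0.47).

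The remaining modifying enzymes did not pass the test. Of 7 genes for prolyl 3-hydroxylation and further prolyl hydroxylases, 0 were called in either direction, 2 had an unadjusted p under 0.05 and 3 were lower and 1 higher with the replicate block. Crtap, the scaffold of the 3-hydroxylation complex, had a log2 fold change of -0.15 (edgeR adjusted p = 0.23), and its partner cyclophilin B, encoded by Ppib, of 0.04. P4ha3, the third catalytic α subunit, chosen outside the naming rule, was at 0.71 ± 0.06 CPM in the control and 1.31 ± 0.23 with ICF (edgeR adjusted p = 0.065). Of 2 hydroxylysine glycosyltransferases 0 passed, 1 had an unadjusted p under 0.05, and 1 was lower with the replicate block. Colgalt1, which adds galactose to hydroxylysine, was at 240.4 ± 10.7 and 239 ± 19.95 CPM. Colgalt2 was far lower, at 4.64 ± 0.22 and 3.18 ± 0.92 CPM.

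Among 7 genes of the other lysyl oxidases and their partners, 0 passed, 1 had an unadjusted p under 0.05, and with the replicate block 1 was lower and 1 higher. Loxl1, Loxl3 and Loxl4, named as the other members of the family, were all below 5 CPM on average. Fibronectin (Fn1), which binds lysyl oxidase, had a log2 fold change of -0.23 (edgeR adjusted p = 0.24) and with the replicate block an adjusted p of 0.00046. Efemp2, which brings lysyl oxidase to its substrate, had a log2 fold change of -0.08. Of 7 tested genes that cut or help cut procollagen, 0 passed. 3 of them had an unadjusted p under 0.05, and with the replicate block 2 were lower and 1 higher. Bmp1, the protease that removes the C-propeptide and also activates lysyl oxidase, was at 16.9 ± 3.32 and 21.8 ± 2.96 CPM. Bmp1 had a log2 fold change of 0.36 (edgeR adjusted p = 0.17), and in the fit with the block its adjusted p was 0.00052. The enhancer of this protease, Pcolce, had a log2 fold change of -0.24.

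In the list of ascorbate and iron supply, 1 of 8 genes was downregulated and 1 upregulated, and with the replicate block 1 was lower and 5 were higher. Tfrc, which takes up iron with transferrin, fell from 356 ± 12.4 to 268 ± 31.6 CPM. Fth1, the heavy chain of the iron store ferritin, rose from 567 ± 31.6 to 722 ± 19.3 CPM. The adjusted p-values were 0.025 and 0.013 (edgeR). Both calls were lost without control replicate 1 or without control replicate 2, and that of Tfrc also without ICF replicate 1 or 2 (adjusted p of 0.066 to 0.12 for Tfrc and of 0.066 to 0.089 for Fth1).

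**Figure D4:**
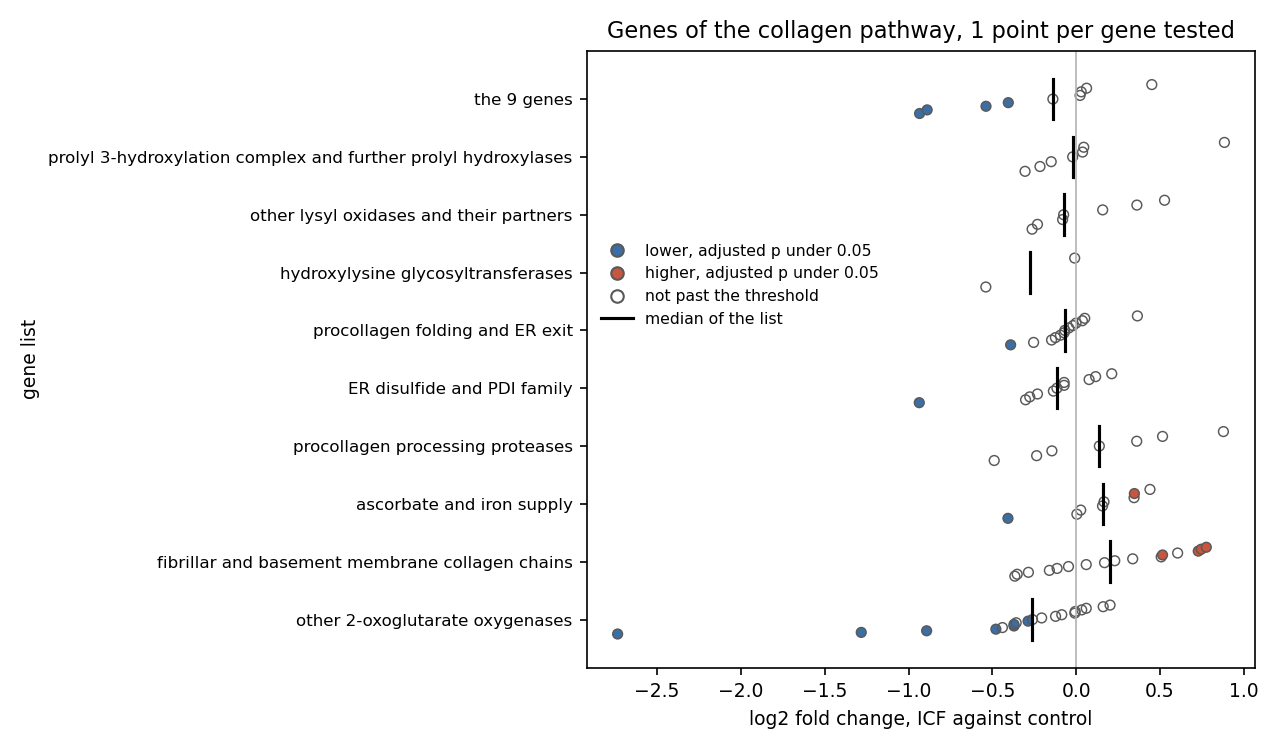
Log2 fold change with ICF (x axis) of the genes tested in each list (y axis), filled where the adjusted p was under 0.05, with a vertical bar at each list's median. The filled points on the right are 4 fibrillar collagen chains and Fth1, and Egln3, at -2.73, is the farthest on the left.

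Enzymes of the same chemistry outside the collagen pathway were set beside the hydroxylases. Of 19 other 2-oxoglutarate oxygenases tested, 7 were downregulated and 0 upregulated (median log2 fold change -0.26), where 4.38% and 3.47% of all genes were. With the replicate block 11 were lower and 1 higher, where 15.3% and 14.6% of all genes were. Egln3 and Egln1, the prolyl hydroxylases that mark the HIF-1 α subunit for degradation, had log2 fold changes of -2.73 (SE 0.28, edgeR adjusted p = 0.00036) and -1.28 (SE 0.28, edgeR adjusted p = 0.0068). The histone demethylases Kdm4b and Kdm4c had values of -0.89 (edgeR adjusted p = 0.0029) and -0.48 (edgeR adjusted p = 0.032). The call of Kdm4c held only without ICF replicate 3 among the 6 tests that left out a sample, and the other adjusted p-values were 0.052 to 0.14. The fall of P4ha1 was close in size to that of Kdm4b and smaller than that of Egln3. These differences between genes were not tested.

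The genes most like P4ha1, Plod2 and Lox over the 6 samples were found by the root-mean-square difference of their mean-centred log2 CPM, taken over genes whose counts averaged at least 100. Nearest to P4ha1 were the glycolytic enzyme gene Eno1 (difference 0.03), Acp6 (0.04) and Pdk1 (0.05), a kinase that restrains pyruvate dehydrogenase. Eno1 went from a mean of 2021 to 1064 CPM. Plod2 was nearest to Atg10 (0.02), Ppme1 (0.04) and Pnrc1 (0.04). Atg10, at a mean of 4.07 CPM in the control and 2.81 with ICF, did not pass the test (edgeR adjusted p = 0.057). Lox had no close match, with differences of 0.47 to 0.55 for Col3a1, Prkg2 and Micall2.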

How the data were processed

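The authors used FastQC and Trimmomatic on the reads, HISAT2 for alignment and HTSeq for counting. The submitters' processing notes list bcl2fastq 2.19 and the builds GRCm38 and hg38, and versions of the other tools are not given in the sources used here. The deposited values are whole-number counts per Ensembl gene, not normalized. The HTSeq summary rows, 38.1% to 40.3% of the summed counts of all rows, were left out.

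Names, positions and exon lengths came from GENCODE M21 (GRCm38), which held 50462 of the 50686 identifiers. All 9 genes and all 95 pathway genes matched, 2 of them under an older symbol. edgeR 4.0.16 in R 4.3.3 was used (TMM, filterByExpr, glmQLFit and glmQLFTest, no block, Benjamini-Hochberg adjustment over 16729 genes) and was checked on simulated data. CPM are TMM-scaled. Standard errors come from the spread of log2 CPM with a prior count of 2. Median chi-square values per gene within a group were 0.97 and 1.04 between replicates 1 and 2 and 2.68 to 4.91 between replicate 3 and the others. This statistic treats each count as 1 separate read. With ICF replicate 3, where 89.0% of the counts above 0 were divisible by 4, it was 4.06 and 4.91. The part of these counts in the statistic was not tested. No repeat run was there to compare with, and all 6 samples were counted separately, as labelled. The donor numbers in the labels were used to pair the samples, though the labels do not say that same-numbered samples share a culture. As a check, the departures of same-numbered samples from the mean of their group had correlations over genes of 0.15, 0.2 and 0.38. Between different numbers they were -0.34 to 0.26, with 0.26 and 0.17 between numbers 1 and 2, which this check does not tell apart. The alternatives were DESeq2 1.42.0, RLE factors, 2 other filters, the replicate block in both tools, each sample left out, replicate 3 left out of both groups, and ICF replicate 3 divided by 4. Levels per kilobase by the longest transcript were added after seeing the data.

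The 9 genes and the lists were chosen with earlier results of these data known. From each pathway list up to 4 genes were named, those past the threshold with the largest change, filled up to 2 by the highest counts.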

Additional observations from a re-analysis of the deposited data

How the results depend on the processing

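Of 126 log2 fold changes of the 9 genes under 14 alternatives, 111 kept their direction and their side of the threshold. P4ha1, Plod2 and Loxl2 passed in all, with log2 fold changes of -0.99 to -0.83, -0.65 to -0.49 and -1.08 to -0.83. P4ha2 lost its call in 5 of the 6 tests that left out a sample, and P4hb gained one with the replicate block (edgeR and DESeq2) and without replicate 3 of both groups. Signs turned for genes that were never called, in Plod1 without control replicate 3, ICF replicate 1 or ICF replicate 2 (range without samples -0.071 to 0.161), in Plod3 without ICF replicate 2 (-0.006 to 0.157), in Serpinh1 without control replicate 3 or ICF replicate 2 (-0.021 to 0.111), and in Lox without replicate 3 of both groups (-0.279 to 0.908). The number of the 9 genes called lower was 4, with 3 to 5 without samples and 5 with the replicate block, and the number called higher was 0 throughout. With the block, 2561 of all genes were called lower and 2445 higher, against 733 and 580 without it. With DESeq2 these were 1071 and 877, and with the block in DESeq2 1666 and 1354. Leaving out 1 sample gave 215 to 928 and 85 to 724, and leaving out replicate 3 of both groups 2627 and 2466.

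The calls of the pathway lists moved more, from 10 lower and 5 higher genes. With DESeq2, 16 were lower, and with a count of at least 1 in any sample, 16. With the replicate block 28 were lower and 17 higher in edgeR, and 24 and 9 in DESeq2. Leaving out samples gave 4 to 26 lower and 1 to 16 higher, the highest values being those without replicate 3 of both groups. Of the 15 genes called, 5 (Ero1a, Col5a2, Egln1, Egln3 and Kdm4b) passed in all alternatives. The cause of these shifts was not tested. Lox had 29 to 168 reads per sample, and the other 8 genes had mean counts of at least 2399.5. With the longest transcript in place of all exons, chosen after seeing the data, the difference in the summed lysyl hydroxylases moved from -21.5 to -31.8 CPM per kilobase. The differences between ICF and control in the 4 shares moved by less than 1 SD. The shares themselves could move more, that of P4ha1 in the control from 74.99% to 60.0%.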
